A study of Arabidopsis thaliana with 4 samples.

Results

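RNA of Arabidopsis emf2 seedlings that carried 35S::BoEMF2.1, named rescued emf2, was set against RNA of emf2 seedlings without the transgene. This comparison uses 2 of the 4 arrays of the study, 1 array per group, and reads all 22746 probe sets that are not controls. The remaining arrays, of the Columbia wild type with the same transgene (transWT) and without it (WT), are given beside it. Rescued emf2 carries the emf2 mutation and a BoEMF2.1 coding gene of Brassica oleracea behind the strong and nearly ubiquitous 35S promoter of a plant virus, and grew on plates with hygromycin, the antibiotic that selects for the transgene. The emf2 seedlings carry the mutation alone and grew on plates without hygromycin. TransWT had the transgene and hygromycin in the wild type, and WT had neither. All seedlings were 7 days old, were taken whole, and were raised at 21 °C with 8 h of light per day on medium with 1.5% sucrose. The emf2 allele, the number of transgenic lines and the number of pooled seedlings are not stated in the labels. Transgene, hygromycin and array changed together between rescued emf2 and emf2, so they cannot be told apart.

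EMF2 is a zinc finger subunit of Polycomb repressive complex 2, which methylates histone H3 and keeps genes of flower and seed development silent while a plant is vegetative. Seedlings that lack EMF2 skip most of rosette growth, stay small and form flower-like organs early. The question of the comparison is how the transcripts of such a mutant differ once a Brassica relative of the gene is expressed in it.

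Values are MAS5 signals, the linear brightness of a probe set, after each array was scaled to the same trimmed mean. A signal of 87.6 served as a floor: 13394 probe sets lay above it on the rescued emf2 array and 13399 on the emf2 array. A probe set was called higher or lower at 2-fold or more with the brighter array above the floor. A ratio whose dimmer array lay below the floor is a bound and carries the words at least. Each group is a single array, so there is no spread between replicates and no p-value for any gene. From 43 genes with several probe sets, the measurement error of a log2 ratio had an SD of 0.33, which leaves out differences between plantings. Spiked controls were brighter on the rescued emf2 array than on the emf2 array, by a median of 2.38-fold over 7 poly-A and 1.31-fold over 16 hybridization probe sets. In transWT over WT the same controls differed by 1.92-fold and 1.21-fold. In the brightest 10% of probe sets the median log2 ratio was 0.12 in rescued emf2 over emf2, against -0.06 over all tested, and 0.15 in transWT over WT. EMF2 has no named probe set, so the genotype was not checked by its signal. In bulk tissue, fewer cells of a type and less RNA per cell cannot be told apart.

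Of 14122 probe sets tested, 826 (5.85%) were called higher in rescued emf2 and 702 (4.97%) lower, 10.8% together. The other 8624 lay below the floor on both arrays. A ratio of 4-fold or more was seen for 141 probe sets on the higher side and 91 on the lower side. Through the platform annotation 13356 genes were named, of which 7527 were tested, 389 were called higher (5.17%) and 347 lower (4.61%), 9.78% together. Without plastid-encoded genes these shares were 4.82%, 4.63% and 9.45%. A gene symbol is on record for 1082 of the tested genes, for 89 of those called higher and for 49 of those called lower. Genes known only by a locus tag are given below by that tag and without a role.

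**Figure D1:**
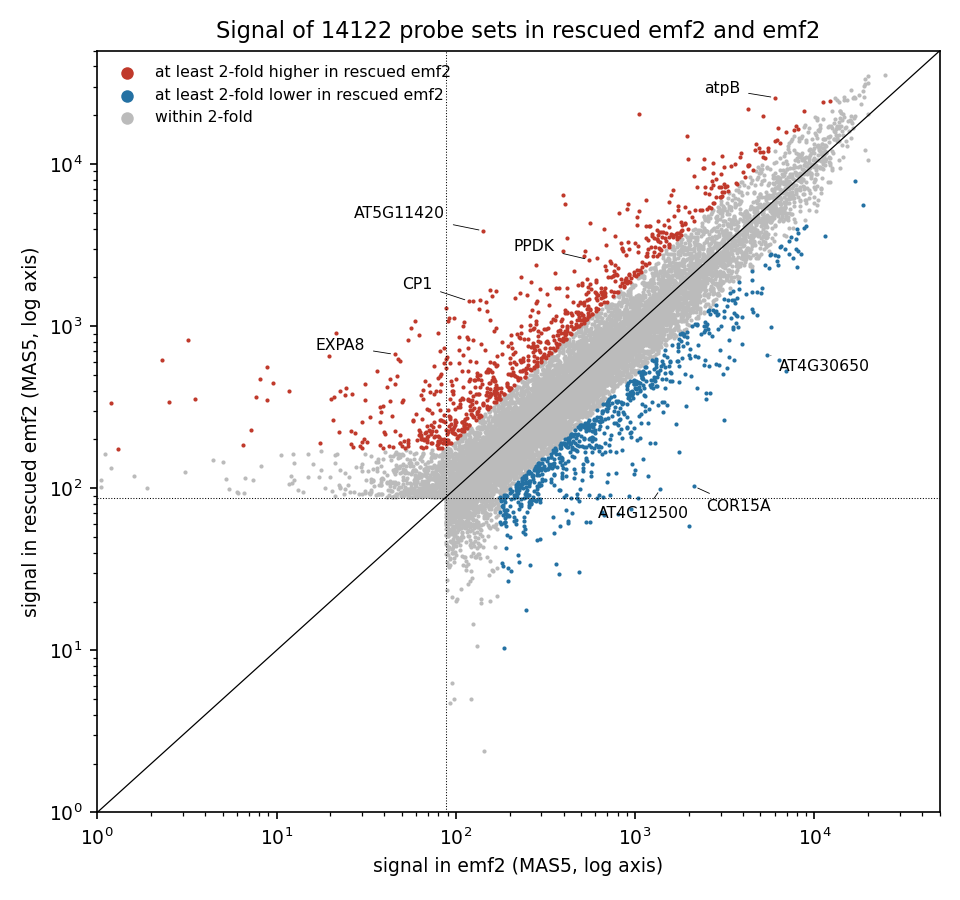
MAS5 signal of each tested probe set in rescued emf2 (vertical, log axis) and in emf2 (horizontal, log axis); each point is 1 probe set, the solid line marks equal signals, the dotted lines mark the floor of 87.6, and signals near 0 are drawn at the axis edge. The 826 probe sets called higher in rescued emf2 lie above the band of points within 2-fold, with AT5G11420, CP1 and EXPA8 far from it, and the 702 called lower lie below it, with COR15A farthest.

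The widest measured ratio upward was that of AT5G11420, with a signal of 3875 in rescued emf2 and 142 in emf2 (27.3-fold), beside 6805 in transWT and 4335 in WT. Its signal was low on the emf2 array alone. MSRB6, a methionine sulfoxide reductase, which repairs oxidised methionine in proteins, read 853 in rescued emf2 and 104 in emf2 (8.17-fold), with 3456 in transWT and 3214 in WT. The rescued emf2 signal of MSRB6 thus lay between that of emf2 and those of the arrays without the mutation. The other 4 methionine sulfoxide reductase genes tested were within 2-fold, with log2 ratios between -0.79 and -0.15.

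EXPA8, an expansin, a protein that loosens cell walls during growth, gave 669 in rescued emf2 against 45.6 in emf2 (at least 7.64-fold), with 3605 in transWT and 4363 in WT. AT3G05730 followed the same order, with 2922 in rescued emf2 and 397 in emf2 (7.37-fold), and 11254 in transWT and 13722 in WT. AT2G29290 read 904 in rescued emf2 and 231 in emf2 (3.92-fold), beside 2766 in transWT and 3214 in WT. In these 4 genes the emf2 array was the dimmest, and rescued emf2 stayed at least 3-fold below the arrays without the mutation.

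Transcripts made in the chloroplast formed the largest named group. Of 69 plastid-encoded genes 60 were tested, 29 were called higher in rescued emf2 and 1 lower, with a median log2 ratio of 0.88, while all named genes had a median of -0.07 and 5.17% higher. The plastid genes split by function. All 5 tested subunits of the ATP synthase, which makes ATP from the thylakoid proton gradient, were higher, with a median log2 ratio of 2.09. For atpB the signals were 25681 in rescued emf2 and 6020 in emf2 (4.27-fold), and for atpE 21732 and 4285 (5.07-fold).

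Of photosystem I, 3 of 5 subunits were called higher, psaA (4.94-fold), psaB (5.45-fold) and psaI (5.56-fold). In the same complex psaC read 629 in rescued emf2 and 635 in emf2, and psaJ was within 2-fold as well. Of photosystem II, 3 of 13 were higher: psbC, a core antenna protein (8.29-fold), psbD, a reaction centre protein (3.14-fold), and psbA, the other reaction centre protein (2.58-fold). The median of photosystem II was 0.06, and after cyclic loess normalization it turned to -0.07. For psbA the signals were 693 in rescued emf2 and 269 in emf2. For psbE they were 6591 and 9508, within 2-fold on the lower side. In the cytochrome b6f complex petL was 11.4-fold and petA 4.86-fold higher, and petB was within 2-fold.

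Genes for the machinery of plastid gene expression were also uneven. The ribosomal proteins rpl16 (9.47-fold), rps2 (7.15-fold), rps4 (6.16-fold) and rps19 (2.08-fold) were higher among 14 tested. For rpl16 the signal was 1056 in rescued emf2 and 112 in emf2, with 1703 in transWT and 1611 in WT. A further ribosomal protein, rpl36, went the other way, with 177 in rescued emf2 and 592 in emf2 (3.34-fold lower), against 677 in transWT and 3939 in WT. Of the plastid RNA polymerase, rpoC1 (2.03-fold) and rpoC2 (at least 2.09-fold) were called higher and rpoA was not. The NDH complex, which carries electrons around photosystem I, had 4 of 9 subunits higher, with ndhJ at 3.66-fold. Of the other plastid genes 6 of 8 were higher, from ccsA (3.95-fold), needed to attach haem to cytochromes, to rbcL, the large subunit of Rubisco (2.11-fold). For rbcL the signals were 370 in rescued emf2 and 175 in emf2. The poly-A and hybridization control probe sets were also brighter on the rescued emf2 array, as given above. Their part in the plastid signals was not tested, and neither was how evenly plastid transcripts were labelled.

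**Figure D2:**
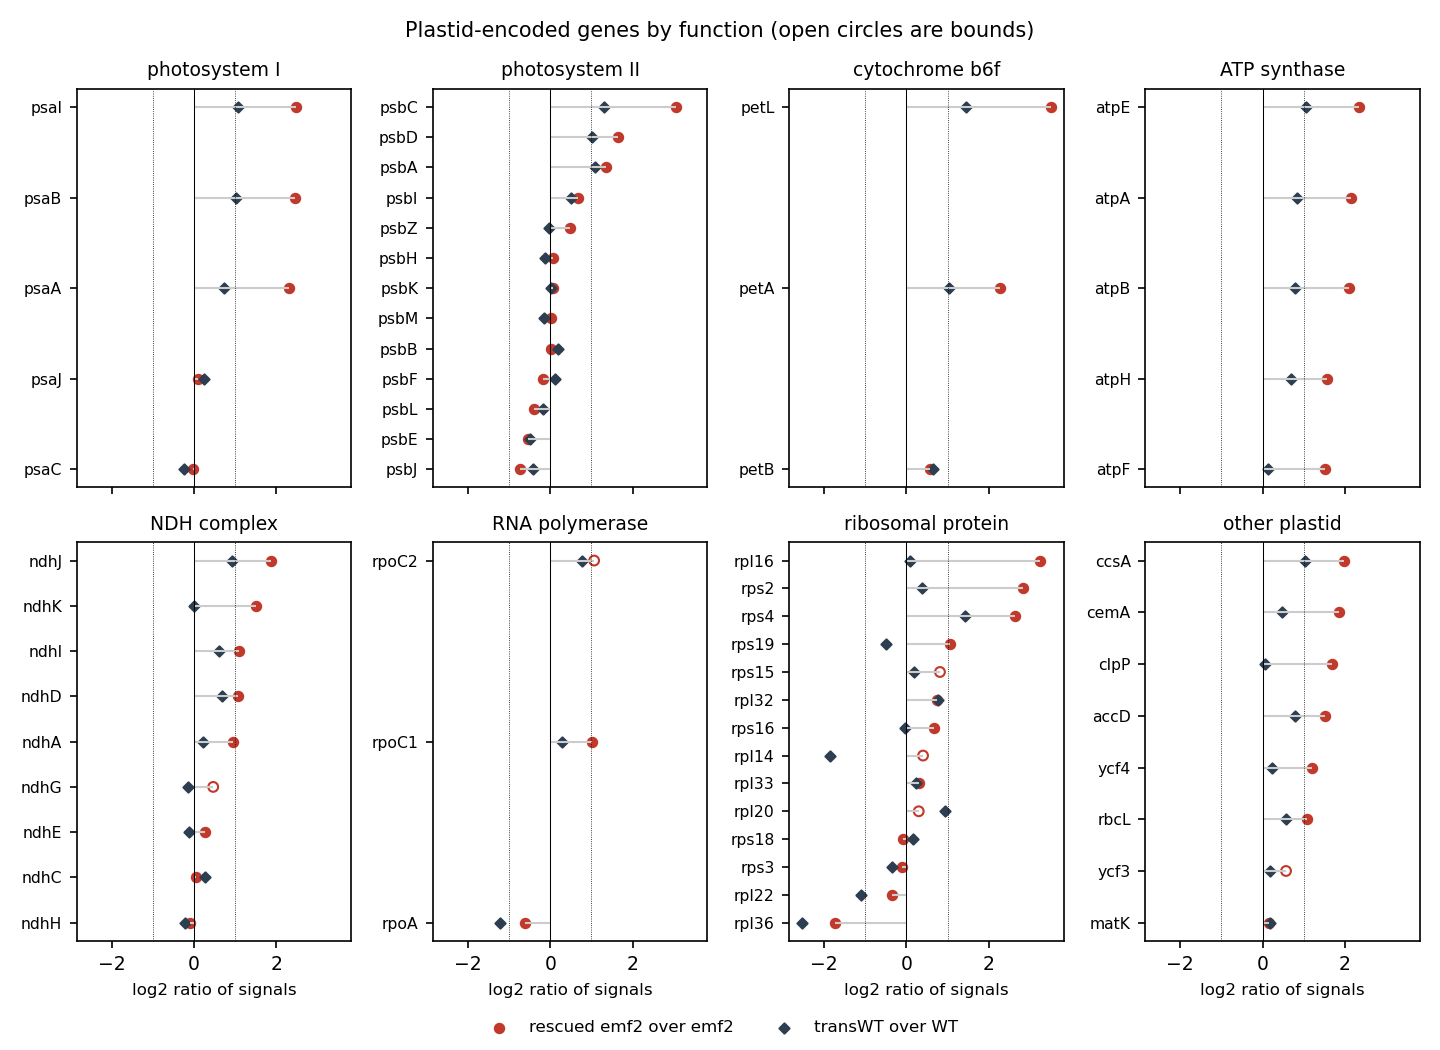
Log2 ratio of signals (horizontal) for each tested plastid-encoded gene, in panels by function; red circles are rescued emf2 over emf2, open where the ratio is a bound, and dark diamonds are transWT over WT. All 5 ATP synthase genes lie to the right of 1 in rescued emf2 over emf2, whereas most photosystem II genes lie near 0 and rpl36 lies at -1.74.

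Nuclear genes for photosynthesis were higher by smaller factors. Of 9 tested, 4 were called higher: LHCB4.2 (2.42-fold) and LHCB4.3 (2.12-fold), antenna proteins of photosystem II, PSBY, a small photosystem II protein (2.29-fold), and RCA, the activase of Rubisco (2.0-fold). Of all named genes 5.17% were called higher, and the list was chosen with earlier results of these data known. For the 9 genes all log2 ratios were above 0, with a median of 0.89. That median was 0.46 after quantile normalization and 0.59 after cyclic loess, and the count of genes past 2-fold was then 3 and 1. RCA read 24480 in rescued emf2 and 12239 in emf2, beside 25436 in transWT and 16006 in WT. LHCB4.3 read 735 in rescued emf2 and 346 in emf2, beside 1641 in transWT and 347 in WT. It was thus also called higher in transWT over WT (4.73-fold). Among enzymes of carbon fixation SBPASE, which regenerates the acceptor of carbon dioxide, was 2.96-fold higher, with 7890 in rescued emf2 and 2668 in emf2.

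Further genes whose products work in chloroplasts or photorespiration were called higher, and were picked after their values were seen. TAPX, the thylakoid ascorbate peroxidase, read 1550 in rescued emf2 and 624 in emf2 (2.48-fold). HPR, the hydroxypyruvate reductase of photorespiration, read 12488 and 4923 (2.54-fold). CaS, a thylakoid calcium sensing protein, was 2.21-fold higher. CHLM, a methyltransferase of chlorophyll synthesis, was 2.38-fold higher and the only one of 9 tested genes for chlorophyll and carotenoids past 2-fold. TAAC, a thylakoid ATP/ADP carrier, was lower, with 139 in rescued emf2 and 292 in emf2 (2.1-fold). The named leaf markers had a summed signal of 70921 in rescued emf2 and 34584 in emf2 over 5 genes, with 69960 in transWT and 50702 in WT. Most of that sum is RCA, LHCB4.2 and LHCB4.1, which are nuclear photosynthesis genes counted above. YAB5, a regulator of leaf development, read 142 in rescued emf2, 21.1 in emf2, 448 in transWT and 649 in WT. The part of leaf tissue in the photosynthetic signals was not tested.

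Genes of protein and amino acid breakdown are given next, from a list chosen with earlier results of these data known. Of 11 tested genes of starvation and senescence 4 were called higher and none lower, with a median log2 ratio of 0.92. Of all named genes 5.17% were called higher. In transWT over WT 5 of the same 11 were called higher and none lower, with a median of 0.93. CP1, a cysteine protease, read 1428 in rescued emf2 and 118 in emf2 (12.1-fold), and 3667 in transWT and 263 in WT. Both transgenic arrays were high for CP1 and both others low. PPDK, an enzyme that turns pyruvate into phosphoenolpyruvate, read 2572 in rescued emf2 and 552 in emf2 (4.66-fold), and 1306 in transWT and 158 in WT. MCCA, a subunit of methylcrotonyl-CoA carboxylase in leucine breakdown, was 2.41-fold higher and SAG29, the sugar transporter SWEET15, 2.27-fold. The partner subunit MCCB and IVD, of the same pathway, stayed just within 2-fold.

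MGL, AAH, ASPGB1 and AKINBETA1, outside that list, were picked after their values were seen. MGL, which cleaves methionine, read 596 in rescued emf2 and 162 in emf2 (3.67-fold). AAH, which releases ammonia from allantoate, was 2.07-fold and the asparaginase ASPGB1 2.19-fold higher. AKINBETA1, a subunit of the energy-sensing kinase SnRK1, read 3497 in rescued emf2 and 1150 in emf2 (3.04-fold). Of 6 cysteine proteases and vacuolar processing enzymes, CP1 and CP5 (2.05-fold) were higher and BETA-VPE, a processing protease, lower (2.2-fold). Of 4 subtilases, another class of proteases, SBT3.5 was higher (2.1-fold) and SBT1.3 lower (2.84-fold). None of 10 tested autophagy genes passed 2-fold, with log2 ratios between -0.75 and 0.84.

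**Figure D3:**
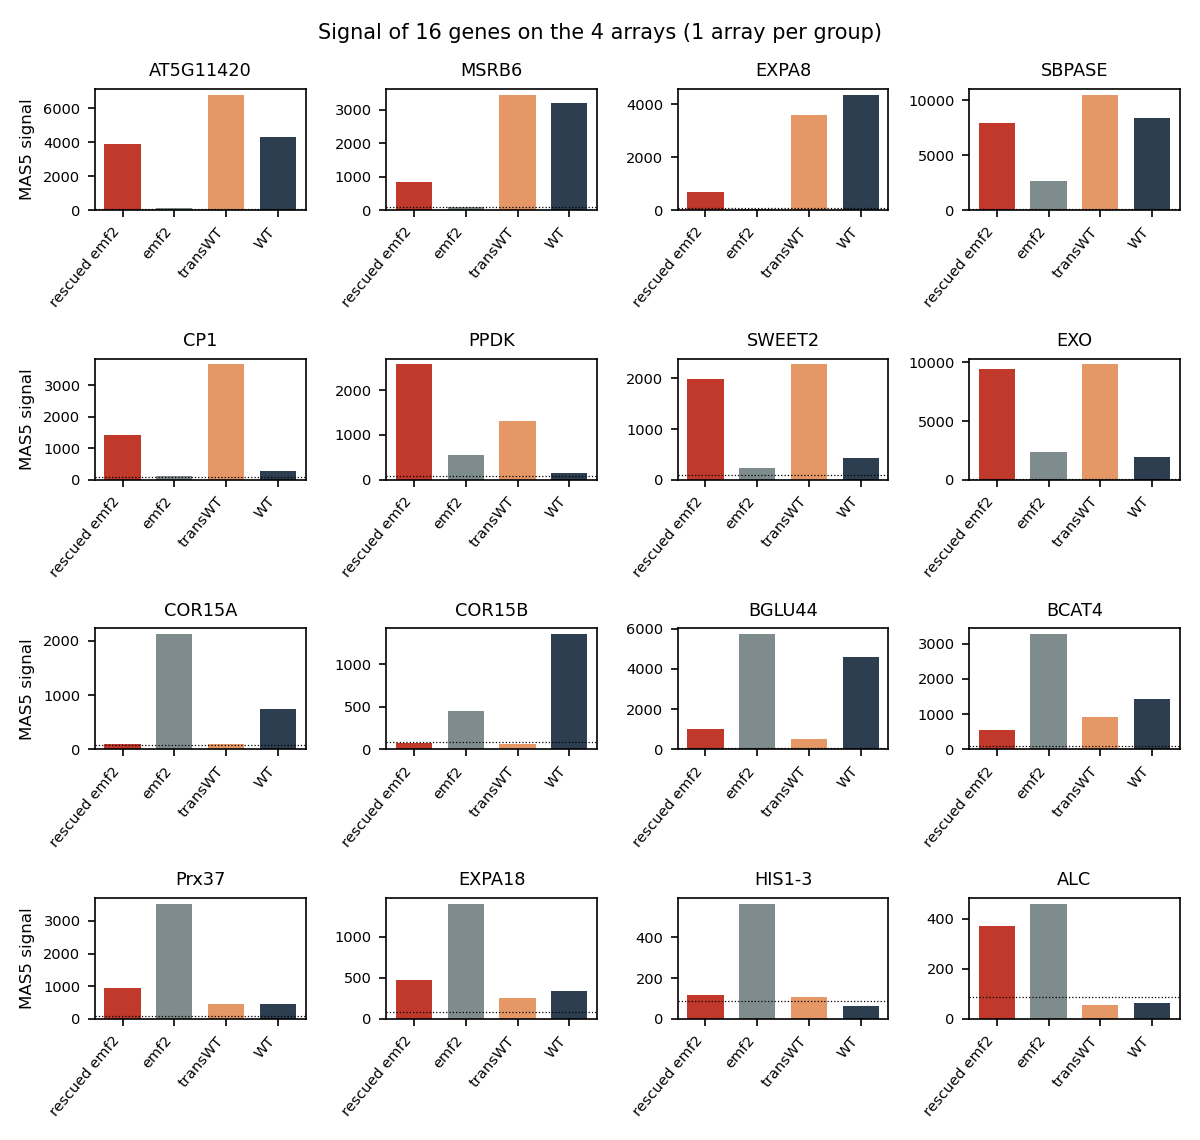
MAS5 signal (bars, linear axis from 0) of 16 genes on the 4 arrays, in the order rescued emf2, emf2, transWT and WT; the dotted line is the floor of 87.6 and each bar is 1 array. EXPA8 and MSRB6 are lowest in emf2, CP1, PPDK, SWEET2 and EXO are high on both transgenic arrays, and ALC is high on both emf2 arrays.

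Sugar transporters moved in both directions. SWEET2, a vacuolar glucose transporter, read 1996 in rescued emf2 and 232 in emf2 (8.61-fold), and SWEET11, which loads sucrose for the phloem, was 2.06-fold higher. SWEET1, a glucose transporter, was lower, with 649 in rescued emf2 and 2234 in emf2 (3.44-fold). The other 9 of 12 tested in this list lay within 2-fold. SAG29 (SWEET15), given above as higher, is not among the 12. Of the starch genes, PWD (3.0-fold) and DPE1 (2.86-fold), both enzymes of starch breakdown, were lower, and SBE2.2, a branching enzyme of starch synthesis, was within 2-fold.

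Genes of cell wall growth were divided as well. Of 12 tested expansins EXPA8 and EXLA2 (2.06-fold) were higher, and EXPA18 (2.96-fold) and EXPA7 (2.09-fold), both known from root hairs, were lower. EXPA18 gave 474 in rescued emf2 and 1404 in emf2, with 251 in transWT and 335 in WT. PYK10, a beta-glucosidase abundant in roots, was nearly equal at 17946 in rescued emf2 and 16103 in emf2. PYK10, EXPA7 and EXPA18 are the 3 named root markers, with a median log2 ratio of -1.07. Their summed signal of 18754 in rescued emf2 and 18206 in emf2 is mostly PYK10. XTH16, an enzyme that cuts and rejoins xyloglucan, was 2.89-fold higher, while XTH20 (2.55-fold) and XTH26 (2.66-fold) were lower. EXO, a cell wall protein needed for leaf growth, read 9412 in rescued emf2 and 2379 in emf2 (3.96-fold). TBL45, of a family that acetylates wall polysaccharides, was 4.36-fold higher, and the other 13 tested members of the family lay within 2-fold. THE1, a receptor kinase that senses wall integrity, was 2.45-fold higher. The beta-tubulins TUB1 (2.99-fold) and TUB9 (2.01-fold) were lower, and the actin ACT11 was 2.1-fold higher.

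On the lower side the widest ratio belonged to COR15A, a cold-regulated chloroplast protein that protects membranes in frost. It read 103 in rescued emf2 and 2128 in emf2 (20.7-fold lower), with 90.8 in transWT and 739 in WT. Its paralog COR15B read 69.9 in rescued emf2 and 447 in emf2 (at least 5.10-fold lower), with 60.6 in transWT and 1354 in WT. COR27, a cold and clock regulated gene, read 191 in rescued emf2 and 1212 in emf2 (6.35-fold lower), with 38.1 in transWT and 146 in WT. Of 5 tested genes for cold and dehydration these 3 were called lower. The dehydrins LTI30 and COR47 lay on the lower side within 2-fold. Of all named genes 4.61% were called lower, and the list was chosen with earlier results of these data known. In transWT over WT 4 of the same 5 were called lower and none higher, with a median log2 ratio of -1.22. Of 3 tested dehydrin and LEA genes 1 was lower. This was LEA4-5, a late embryogenesis abundant protein made in drying tissue, which was 3.87-fold lower, with 234 in rescued emf2 and 906 in emf2. HIS1-3, a linker histone induced by drought, read 120 in rescued emf2 and 564 in emf2 (4.71-fold lower), with 107 in transWT and 65.3 in WT. For LEA4-5 and HIS1-3 the emf2 array stood above the other 3, whereas COR15B was brightest in WT.

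Several families of hydrolases and redox enzymes had members on the lower side. Of 9 tested beta-glucosidases 3 were lower, BGLU44 (5.81-fold), BGLU45 (3.75-fold), which acts on lignin precursors, and BGLU15 (2.82-fold). BGLU44 read 986 in rescued emf2 and 5730 in emf2, with 530 in transWT and 4597 in WT. Of 17 tested serine carboxypeptidase-like genes scpl35 (4.66-fold) and scpl31 (at least 5.01-fold) were lower, and 14 of the 17 log2 ratios were below 0. Their median was -0.42, while all named genes had a median of -0.07 and 4.61% lower. The share of all genes below 0 was not counted. The beta-glucosidase and carboxypeptidase lists were added with values in view. Prx37, a secreted peroxidase, read 958 in rescued emf2 and 3527 in emf2 (3.68-fold lower), with 472 in transWT and 450 in WT. A related gene, AT5G66390 (PEROXIDASE 72), was 2.63-fold lower. GSTU26, a glutathione transferase, was 3.71-fold lower, and GSTU18 of the same family was 2.09-fold higher. CYP71B26 (3.98-fold) and CYP71B37 (at least 2.93-fold) were the cytochrome P450 genes called lower among 10 tested, and none was called higher.

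Defence-related genes did not share a direction. THI2.2, a thionin, was 5.82-fold higher, with 5252 in rescued emf2 and 903 in emf2. PDF2.1, a defensin, was 3.70-fold lower, with 220 in rescued emf2 and 814 in emf2. OSM34, an osmotin, read 2736 in rescued emf2 and 5629 in emf2 (2.06-fold lower). BCAT4, an aminotransferase that starts the lengthening of methionine for glucosinolates, was 5.96-fold lower, with 550 in rescued emf2 and 3274 in emf2. PUB26 (3.89-fold) and PUB25 (2.02-fold), ubiquitin ligases of the plant U-box family, were higher, and the other 6 tested members were within 2-fold.

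**Figure D4:**
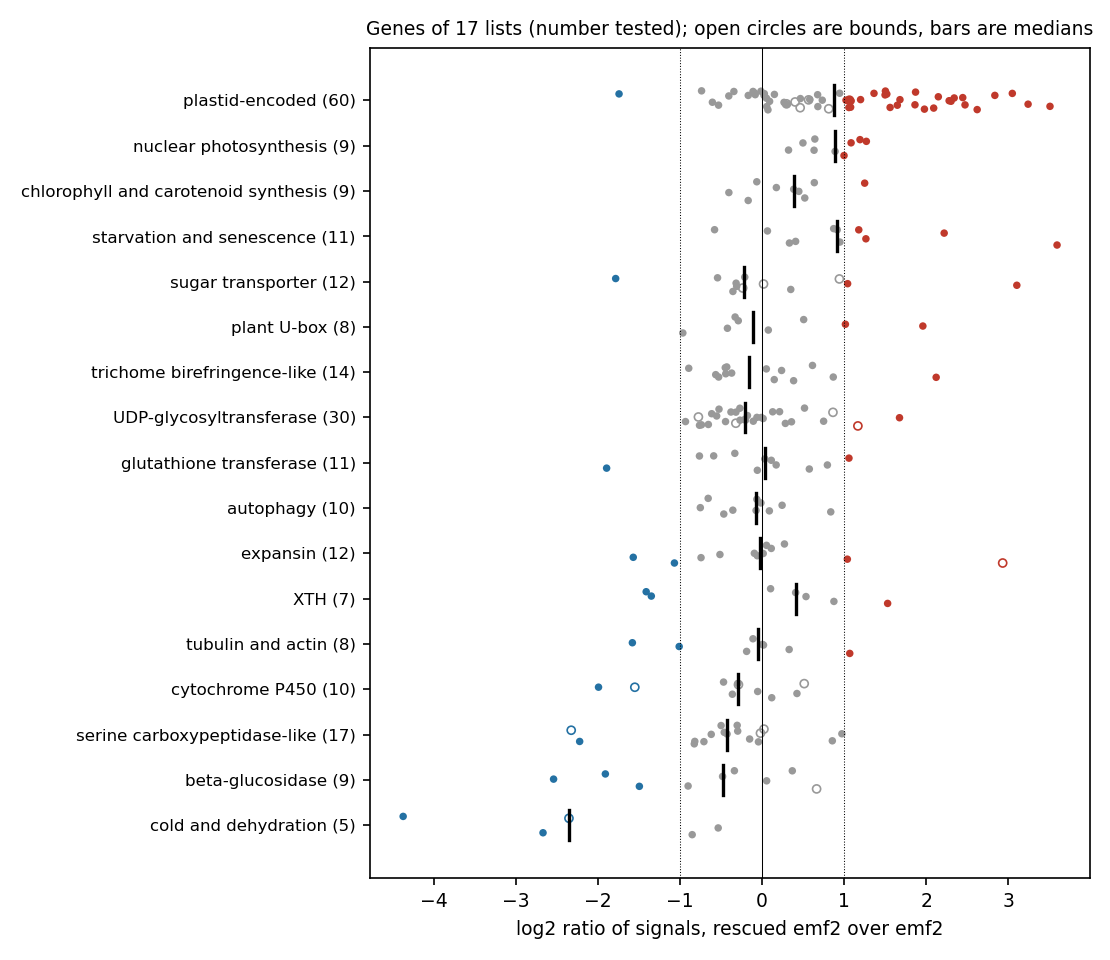
Log2 ratio of signals, rescued emf2 over emf2 (horizontal), for the tested genes of 17 lists, with the number tested in brackets; points are genes, coloured past 2-fold, open circles are bounds and bars are medians. Plastid-encoded genes and nuclear photosynthesis genes lie mostly to the right of 0, cold and dehydration genes to the left, and most other lists straddle 0.

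Regulators and signalling genes with a symbol were few among the calls. UPB1, a transcription factor of root growth, read 1061 in rescued emf2 and 339 in emf2 (3.13-fold). WRKY22, a transcription factor of immune signalling, was 3.84-fold higher, and the other 4 tested WRKY genes were within 2-fold. HYH, a light signalling factor related to HY5, was at least 2.54-fold higher, and AFR, an F-box protein of far-red signalling, 5.70-fold. GH3.3, which conjugates auxin to amino acids, was at least 4.29-fold higher. CLE41, the precursor of a peptide that keeps vascular stem cells dividing, was 2.24-fold lower, and so was LHW, a factor of vascular patterning, at 2.1-fold.

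Few genes of flower and Polycomb functions could be read. Of the Polycomb and chromatin list 2 genes were tested, the linker histone HIS1-3, called lower as given above, and ULT1, within 2-fold. None of 4 tested flowering time genes was called. Of 40 named MADS box genes 5 were tested, and AGL87 was the only one called, with 354 in rescued emf2 and 110 in emf2 (3.23-fold), and 727 in transWT and 717 in WT. No floral organ marker is named here, and the named anther, pollen, seed and shoot meristem markers lay below the floor on all 4 arrays. ALC, a regulator of fruit opening, read 373 in rescued emf2 and 461 in emf2, while transWT had 55.9 and WT 65.0. AGL42, a MADS box gene of flowering, read 98.7 in rescued emf2 and 129 in emf2, while transWT had 3.30 and WT 9.70. Over the 3 named carpel and ovule markers, ALC among them, the summed signal was 582 in rescued emf2 and 680 in emf2, while transWT had 199 and WT 229. In rescued emf2 and emf2 most of that sum is ALC. SPT, another of these markers, read 170 in rescued emf2, 206 in emf2, 90.3 in transWT and 147 in WT. ULT1, which opposes Polycomb repression, read 336 in rescued emf2 and 428 in emf2, with 188 in transWT and 150 in WT. ALC, AGL42 and ULT1 were brightest in emf2. In rescued emf2 ALC was at least 4.26-fold above both transWT and WT. ULT1 was 1.79-fold above transWT and 2.25-fold above WT. AGL42 lay near the floor and was at least 1.13-fold above both.

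The same transgene and hygromycin were also present in transWT, which shares no array with rescued emf2 or emf2. Of 14620 probe sets tested in transWT over WT, 567 (3.88%) were called higher and 778 (5.32%) lower, and of its named genes 3.46% and 5.05%. A total of 271 probe sets were called higher in both pairs, 32.8% of the 826 in the emf2 background and 47.8% of the 567 in the wild type. Lower in both were 193, 27.5% of the 702 and 24.8% of the 778. Over the 826 probe sets the median log2 ratio in transWT over WT was 0.64, and over the 702 it was -0.63. Across 12145 probe sets that passed the floor in all groups the log2 ratios of the pairs had a Pearson r of 0.52 and a Spearman rho of 0.48, given as a description. Probe sets are not replicates, all share the same 4 arrays, and the spiked controls and the brightest probe sets shifted the same way in both pairs, whose part in the shared calls was not tested.

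Genes far from equal in both pairs were CP1, with 12.1-fold in rescued emf2 over emf2 and 14-fold in transWT over WT, AT1G65490 (5.24-fold and 15.9-fold), PPDK (4.66-fold and 8.27-fold) and SWEET2 (8.61-fold and 5.38-fold) on the higher side. EXO (3.96-fold and 5.06-fold) and AKINBETA1 (3.04-fold and 3.84-fold) were in the same position. On the lower side COR15A was 20.7-fold and 8.13-fold lower, AT4G30650 8.14-fold and 12.2-fold, and BGLU44 5.81-fold and 8.68-fold. For these genes the transgenic seedlings of both backgrounds differed from seedlings grown without hygromycin in the same direction.

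A smaller set was called in the emf2 background and nearly equal in transWT and WT (a log2 ratio within 0.32 of 0), 145 probe sets higher and 128 lower. Among genes it includes MSRB6, rpl16, AT3G05730, AT2G34620 (1160 in rescued emf2 and 258 in emf2, 1718 in transWT and 1505 in WT) and AT3G12710 (844 and 227, 1473 and 1562) on the higher side. On the lower side it includes Prx37, SWEET1, AT1G75880 (123 in rescued emf2 and 988 in emf2, 172 in transWT and 195 in WT) and AT4G13860 (170 and 626, 151 and 135). The difference between the pairs has no replicate check for any of them. The share of all tested probe sets that were nearly equal in transWT and WT was not counted. The set is therefore not read as particular to the emf2 background. Another 81 probe sets called lower, and 3 called higher, were below the floor on both transWT and WT. Those called lower passed the floor through emf2, their brighter array, and those called higher through rescued emf2. The share of all tested probe sets below the floor on both transWT and WT was not counted. Those called lower include AT5G05220 (141 in rescued emf2 and 955 in emf2, 57.7 in transWT and 38.7 in WT) and AT1G76960 (91.0 and 727, 3.30 and 36.7).

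**Figure D5:**
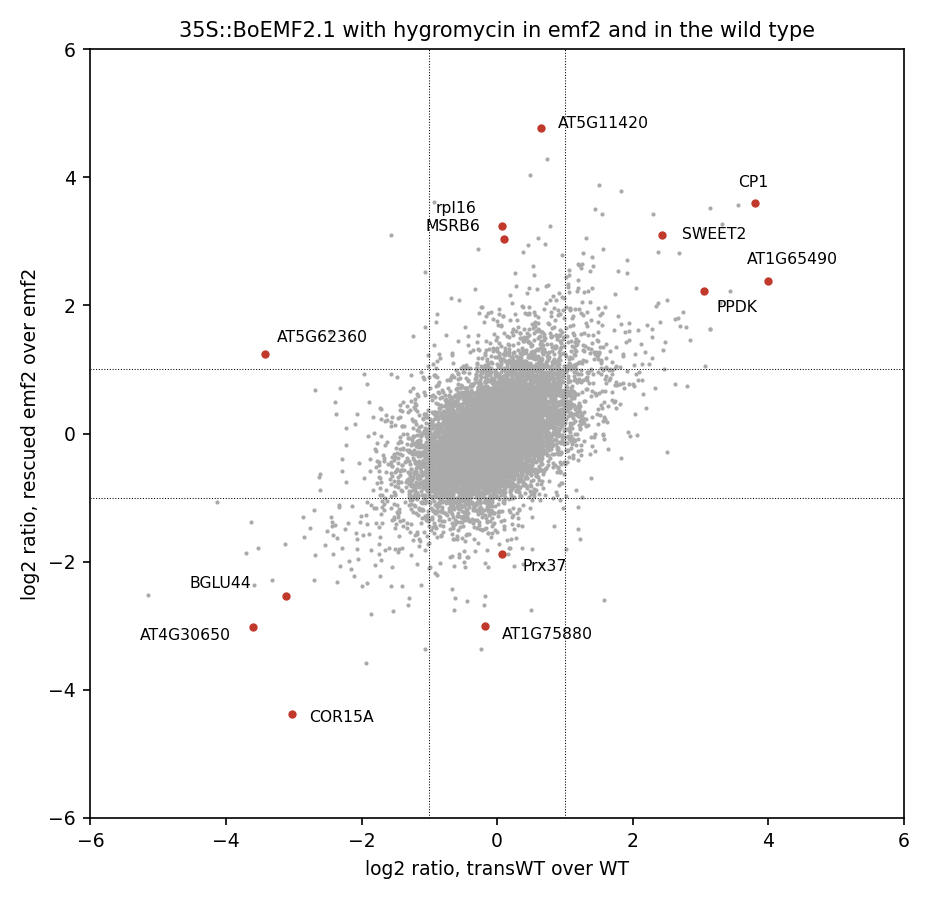
Log2 ratio of rescued emf2 over emf2 (vertical) against that of transWT over WT (horizontal) for 12145 probe sets that passed the floor in all groups; dotted lines mark 2-fold and red points are named genes. CP1, PPDK and SWEET2 lie at the upper right and COR15A and BGLU44 at the lower left, whereas AT5G11420, MSRB6 and rpl16 lie high near the vertical axis and Prx37 low near it.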

How the data were processed

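Whole seedlings gave 10 µg of total RNA per sample, which was made into biotin-labelled cRNA and hybridised to 1 Affymetrix array for each group, as the labels describe. The deposited values are an intensity, the linear MAS5 signal of each of 22810 probe sets, per the submitters' processing notes, and the settings are unknown here. From there each array was scaled to the same mean after leaving out 2% of probe sets at each end, the floor was set at the 40th percentile of the 22746 non-control probe sets over 4 arrays (87.6), and a log2 ratio of each pair of arrays was read with a threshold of 2-fold. MAS5 subtracts mismatch signal, so ratios of dim probe sets are noisy. The number of arrays limits the precision, and with 1 per group no test was run.

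The platform annotation gives 13513 probe sets 1 gene, 503 several and 8794 none, and the last stay unnamed here. Of the 13513, 13436 matched current names (assembly TAIR10.1, names only), and the brightest probe set stands for a gene. Roles are given only for genes with a symbol or, for AT5G66390, a descriptive synonym in that name table. Named genes are the extreme ratios and bounds, list members past 2-fold, genes called in both pairs, in opposite directions or in the emf2 background with transWT near WT, and those at least 4-fold different with rescued emf2 nearest WT. All other named genes were chosen after their values were seen. The members and gene lists were chosen with earlier results of these data known, and lists for beta-glucosidases, carboxypeptidases, subtilases, U-box, TBL, cysteine protease and LEA genes were added with values in view. Python 3.11.15, pandas 2.3.3 and, for cyclic loess, limma 3.58.1 were used.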

Additional observations from a re-analysis of the deposited data

Results flagged for a closer look

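Past 2-fold, 9 named genes differed in opposite directions in the emf2 and in the wild-type background. The difference between the backgrounds was not tested, since each value rests on 1 array per group, and it is given as log2 of rescued emf2 over emf2 minus log2 of transWT over WT. AT5G62360 had the widest difference, 4.67, with signals of 737 in rescued emf2 and 312 in emf2, and 345 in transWT and 3713 in WT. For AT5G44440 the difference was 4.29, with 221 in rescued emf2 and 22.2 in emf2, and 80.5 in transWT and 677 in WT. AT5G16030 differed by 3.87, with 350 in rescued emf2 and 31.0 in emf2, and 474 in transWT and 1740 in WT. AT1G51090 differed by 3.60, with 264 in rescued emf2 and 81.3 in emf2, and 62.9 in transWT and 352 in WT. In these 4 genes WT was the brightest array. AT5G17910 differed by 2.29, with 186 in rescued emf2 and 88.2 in emf2, and 82.5 in transWT and 203 in WT. AT3G46490 differed by 2.22, with 183 in rescued emf2 and 29.1 in emf2, and 278 in transWT and 620 in WT.

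The other 3 genes ran the opposite way. AT3G02480 had a difference of -3.62, with 208 in rescued emf2 and 947 in emf2, and 236 in transWT and 37.5 in WT. The serine carboxypeptidase-like gene scpl31 had -3.36, with 86.9 in rescued emf2 and 439 in emf2, and 180 in transWT and 68.1 in WT. AT2G19970 had -2.82, with 1277 in rescued emf2 and 4470 in emf2, and 952 in transWT and 473 in WT. All 3 were brightest in emf2. Where an array lies below the floor the difference rests on a bound. Over all probe sets, 18 of the 826 called higher in the emf2 background were called lower in the wild type. Of the 702 called lower, 8 were called higher in the wild type. Of all probe sets tested in transWT over WT, 5.32% were called lower and 3.88% higher. Opposite calls were thus no more common than these shares.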

How the results depend on the processing

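Among the 137 called genes picked by the naming rule above, none reversed under the scaling alternatives. A gene past 2-fold would need a large shift to reverse, so this is a weak check. The floor and pseudocount alternatives cannot change the sign of a ratio and are no check of direction. Values as deposited gave the same counts, since the arrays already had nearly the same trimmed mean, and are no separate check. Quantile normalization, median scaling and cyclic loess kept each count of probe sets within 1.5 times its main value. Counted only over probe sets above the floor in rescued emf2 and emf2, 673 were higher and 605 lower; the other counts were not run this way. The share of calls that were higher was 54.1%, and 57.6% with median scaling, 57.2% with quantile normalization and 58.2% with cyclic loess. The floor and the threshold set the counts. In the order higher, lower, higher in both pairs, lower in both pairs, higher with transWT near WT, lower with the same, and opposite, they were 519, 394, 169, 105, 88, 45 and 8 with a 60th percentile floor, 2920, 2045, 983, 531, 555, 437 and 601 without a floor and with a pseudocount of 1, and 273, 189, 73, 47, 29, 18 and 4 at 3-fold. With a 25th percentile floor the last 3 were 226, 199 and 56. A higher floor leaves fewer probe sets to test and a stricter threshold passes fewer; for the rest the cause was not tested. Of those 137 genes, 4 came within 2-fold after quantile normalization (ndhI, CP5, RCA and EXPA7), 10 after cyclic loess and 1, TUB9, with median scaling. With a 60th percentile floor 131 of them were tested and 21 came within 2-fold, among them COR15B, scpl31, GH3.3, PUB26, PUB25, psbD, ndhK, AGL87, SAG29, ACT11 and BETA-VPE. List medians near 0 did change sign with the scaling, those of expansins and photosystem II among them. No paired analysis was possible because each group has 1 array. The planned search for promoter motifs was not run, since no promoter sequences were used here.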
